A study of Mus musculus with 40 samples.

Results

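The kinase TAK1 (*Map3k7*), its 3 binding partners (*Tab1*, *Tab2* and *Tab3*) and 6 adaptors that lie upstream of it (the ubiquitin ligases *Traf2* and *Traf6* and the kinases *Irak1*, *Irak2*, *Irak3* and *Irak4*) were examined as 10 genes taken by name from the 55414 in the count table. All 10 passed the filter on low counts, as did 25210 genes in all. RNA came from cardiac fibroblasts of adult TAK1 fl/fl mice on the C57BL/6J background, in culture at passage 1. All cells carried floxed *Map3k7* alleles, and the cultures were exposed to an adenovirus in which the CMV promoter drove either LacZ, the control, or iCre, a Cre recombinase. CMV is active in most cell types, so any cell that took up the virus could recombine. After serum starvation the cells received no ligand (Con), bFGF at 20 ng/ml, TGFβ at 10 ng/ml, IL-1β at 15 ng/ml or TNFα at 10 ng/ml for 24 h, which gave 10 groups of 4 replicates and 40 libraries. The growth medium before starvation held bFGF for every group. The study describes the replicates as biological and male, and neither it nor the labels say that each came from a separate animal, so p-values measure the spread between these samples.

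TAK1 is a mitogen-activated protein kinase kinase kinase that works as a complex. TAB1 holds and activates the kinase, and TAB2 or TAB3 bind the polyubiquitin chains on which the complex assembles. IL-1β reaches the complex through MyD88, IRAK4, IRAK1, IRAK2 and TRAF6, and TNFα reaches it through TRADD, RIPK1, TRAF2 and the cIAP proteins. IRAK3 (IRAK-M) has little or no kinase activity and is known as a brake on the IL-1 and Toll-like receptor route, mostly from work in macrophages. Active TAK1 phosphorylates the IκB kinases and the MAP2 kinases, which turn on NF-κB, JNK and p38.

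Exon 2 of *Map3k7* is the target of Cre in this floxed line, and its sequence is given because it is the part that recombination removes. It lies at chr4:31974823-31974933 on the plus strand of GRCm38, inside the coding sequence. Capitals mark the codons of the glycine-rich loop and of the lysine that contacts ATP.
Map3k7 exon 2: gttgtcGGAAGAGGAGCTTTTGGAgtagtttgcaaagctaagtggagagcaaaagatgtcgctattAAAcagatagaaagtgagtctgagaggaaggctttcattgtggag
The exon holds 111 bases, or 37 codons (codons 41 to 77), and is present in all 4 protein-coding transcripts of the annotation. Its length is a multiple of 3, so a transcript without it keeps its reading frame. It makes up 1.73% of the exon bases of *Map3k7*, so a gene-level count scores transcripts with and without exon 2 alike and does not measure recombination.

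Promoter sequences from RefSeq (GRCm38.p6, 250 bases before to 50 after the start) were present for 9 of the 10 genes. They were searched on both strands for letters bound by NF-κB (GGANTTNCC), AP-1 (TGANTCA) and SMAD proteins (CAGACA). The NF-κB letters were found for *Map3k7* alone among these genes, beginning 92 bases before its start, and 3.95% of all 32851 promoters hold them. The upstream parts are shown for *Map3k7*, with the match in capitals, and for *Irak2* and *Irak3*, the 2 genes whose levels moved most, for which none of the 3 searches matched.
Map3k7, chr4:31963857-31964106, plus strand: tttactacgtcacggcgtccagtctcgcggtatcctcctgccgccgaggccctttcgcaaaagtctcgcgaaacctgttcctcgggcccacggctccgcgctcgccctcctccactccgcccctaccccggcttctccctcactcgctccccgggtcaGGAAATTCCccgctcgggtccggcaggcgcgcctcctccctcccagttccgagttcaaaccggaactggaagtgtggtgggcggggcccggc
Irak2, chr6:113638217-113638466, plus strand: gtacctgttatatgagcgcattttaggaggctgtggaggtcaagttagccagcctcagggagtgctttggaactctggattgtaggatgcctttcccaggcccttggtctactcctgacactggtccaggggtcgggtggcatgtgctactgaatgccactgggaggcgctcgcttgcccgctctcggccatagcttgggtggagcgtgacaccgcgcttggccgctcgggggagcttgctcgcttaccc
Irak3, the outer of its 2 starts, chr10:120202131-120202380, minus strand: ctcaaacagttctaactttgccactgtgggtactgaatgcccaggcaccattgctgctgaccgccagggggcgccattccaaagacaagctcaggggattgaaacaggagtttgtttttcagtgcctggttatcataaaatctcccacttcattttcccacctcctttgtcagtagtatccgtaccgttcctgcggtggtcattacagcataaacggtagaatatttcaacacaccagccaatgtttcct
The SMAD letters were found once each for *Tab3* and *Traf6* (21.04% of all promoters hold them), and the AP-1 letters for none of the genes (7.81% of all promoters). A match describes the sequence and does not show binding.

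Between 25360947 and 66160732 reads were counted on genes in each library, and the members had between 197 (*Irak3*) and 11630 (*Tab2*) counts in a library. The 8 fibroblast markers were detected in every group, with a summed level of 12868 to 47027 CPM (counts scaled by library size, with TMM factors, to a common total). The summed levels of markers of other cells were 17.3 to 167 CPM for 8 macrophage and leukocyte markers, 0.814 to 13.5 CPM for 4 endothelial markers, 71.9 to 1919.5 CPM for 4 pericyte markers and 0.570 to 111 CPM for 4 cardiomyocyte markers, of which *Myh6* or *Actc1* was at 0 in 9 of the 10 groups. Pericyte markers rose in iCre fibroblasts with TNFα (3 of 4 passed the test, summed level 71.9 to 368 CPM in LacZ and 302 to 1156 CPM in iCre libraries), 2 of 4 rose with IL-1β and 1 of 4 with TGFβ. Without ligand and with bFGF 0 of 4 passed without the replicate block and 2 of 4 were higher with it, where 0.0754% and 0% of all genes were called without the block and 14.5% and 13.9% with it. The summed level without ligand was 106 to 557 CPM in LacZ and 287 to 896 CPM in iCre libraries, and *Cspg4* was at 18.8 ± 4.33 against 36.3 ± 6.16 CPM, with no overlap. Most of that sum was *Rgs5*, at 327 ± 192 against 662 ± 276 CPM. The means of *Kcnj8* (4.11 ± 0.863 against 3.06 ± 1.31 CPM) and *Abcc9* (4.99 ± 0.590 against 4.39 ± 2.25 CPM) were lower in iCre libraries. Of the 8 fibroblast markers, 2 rose and 4 fell after Cre with TNFα, 2 fell with IL-1β and 1 with TGFβ, where 27.3%, 16.1% and 8.37% of all genes were called. The part of these markers in the results below was not tested, and in bulk RNA fewer cells of a type and less RNA per cell cannot be told apart. The 12 libraries of iCre fibroblasts with TGFβ, IL-1β or TNFα stood apart in how gene levels followed GC content. Their log2 CPM rose by 0.198 to 0.341 per 10% GC, relative to the mean of all libraries, against -0.250 to 0.0033 in the other 28. This split is confounded with the groups, so most called results that rest on those libraries are also given after a correction for GC content. Replicate numbers paired the samples, and a fit with the number as a block is given where it changes a call.

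**Figure D1:**
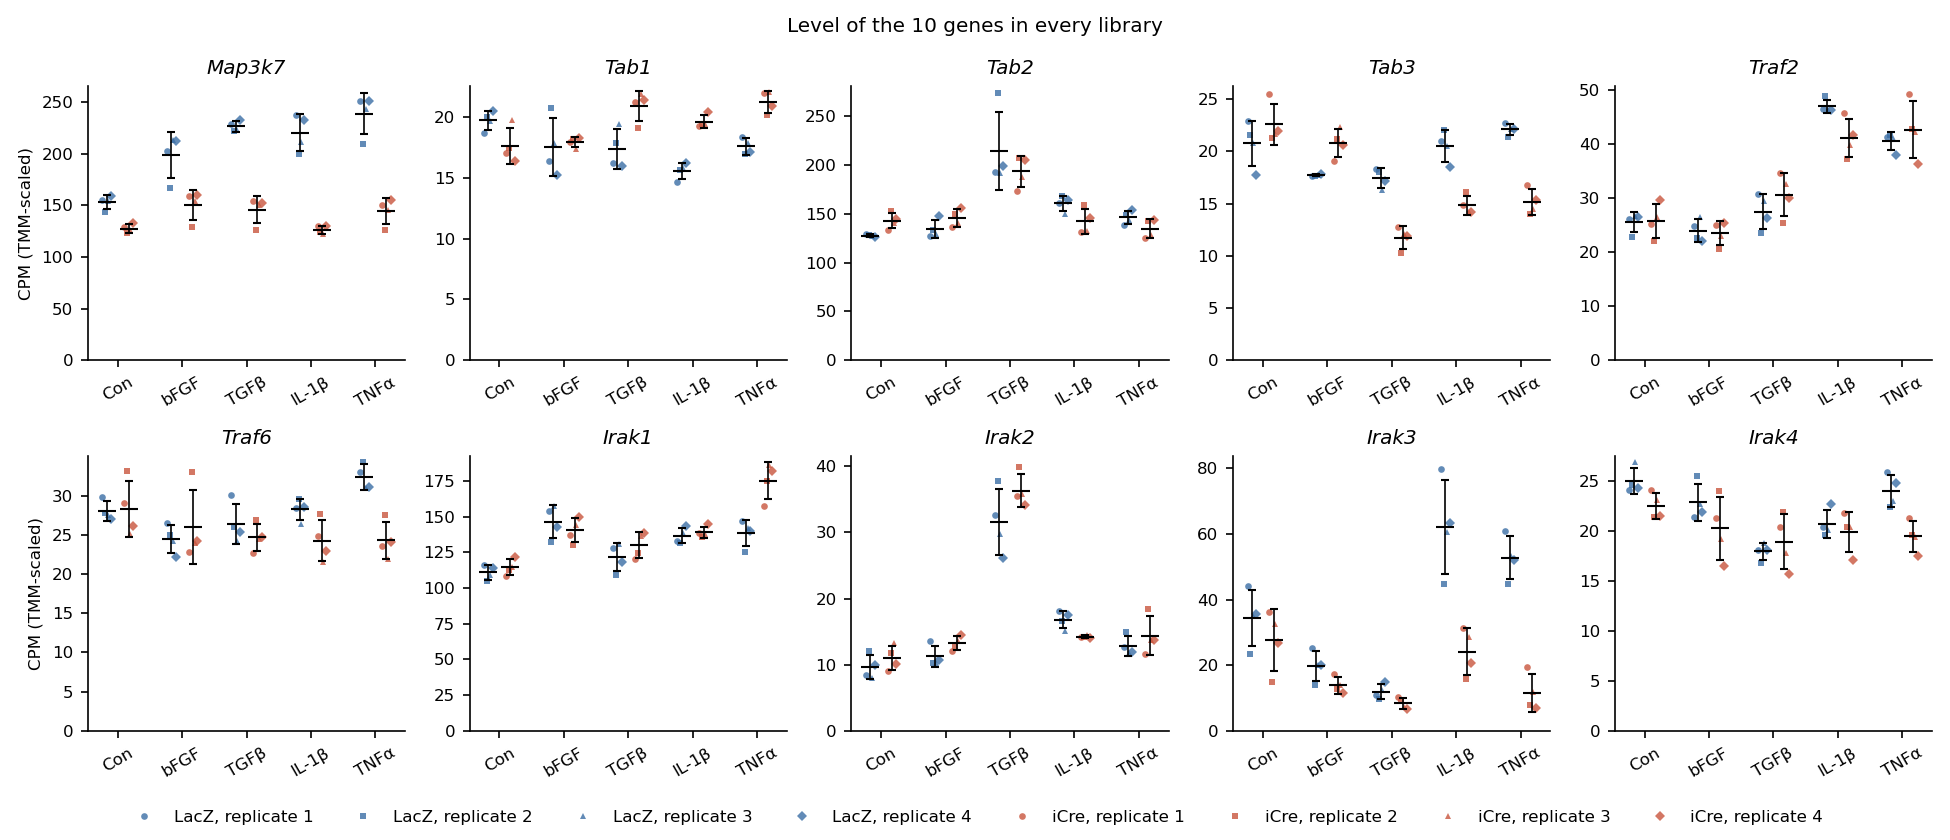
Each panel gives the TMM-scaled CPM of 1 gene (linear axis from 0, a scale of its own) in LacZ (blue) and iCre (red) libraries for the 5 treatments. Points are libraries with the marker shape giving the replicate number, and bars are the mean ± SD of 4. *Map3k7* is lower in all iCre than in all LacZ libraries of each treatment, and *Irak3* has the widest range on a log scale, from 6.55 to 79.9 CPM.

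In LacZ fibroblasts without ligand, levels can be compared between genes only per length, so CPM was divided by the kilobases of all annotated exons of a gene. *Map3k7* (23.9 ± 1.01 CPM per kb, SD, n = 4) and *Irak1* (23.5 ± 1.08) had the highest levels and their ranges overlapped. *Tab2* followed at 20.8 ± 0.219 CPM per kb, *Irak3* at 9.39 ± 2.33 and *Tab1* at 5.87 ± 0.224, each with a range that did not overlap the next. *Traf2* (5.01 ± 0.361) and *Irak4* (4.98 ± 0.257) overlapped, as did *Traf6* (3.56 ± 0.158), *Tab3* (3.13 ± 0.330) and *Irak2* (2.18 ± 0.419 CPM per kb) with their neighbours in that order. The order depended in part on the length used. With the longest transcript *Tab2* ranked first (29.2 CPM per kb) and *Map3k7* below *Irak1*, and *Irak4* ranked above *Tab1*.

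*Map3k7* and *Irak3* were lower after adenoviral Cre in fibroblasts given IL-1β or TNFα, with *Irak3* at 21.8% of its LacZ level under TNFα and *Map3k7* at 57.4% under IL-1β. The question was how loss of TAK1 changes the transcripts of the route that leads to it. With an adjusted p of at most 0.05 (edgeR quasi-likelihood test, 4 libraries against 4, Benjamini-Hochberg over all genes tested), 6 of the 10 genes differed between iCre and LacZ with TNFα (2 higher, 4 lower), against 27.3% of all genes. With IL-1β 4 differed (1 higher, 3 lower, 16.1% of all genes) and with TGFβ 2 did, both lower (8.37% of all genes). Without ligand and with bFGF, edgeR called 0 of the 10 (0.0754% and 0% of all genes), with 1 and 3 of them at an unadjusted p of at most 0.05 and 1 and 0 called by DESeq2. With the replicate block the counts were 2 without ligand, 2 with bFGF, 3 under TGFβ, 5 under IL-1β and 7 under TNFα, where 14.5%, 13.9%, 20.8%, 29.5% and 32.2% of all genes were called. With the GC correction and the block, 2 genes were lower with TGFβ (9.29% of all genes), 5 with IL-1β (22.5%) and 4 with TNFα (27.6%), and none was higher. The median log2 fold change of the 10 genes was -0.22 with IL-1β and -0.19 with TNFα, beside 0.042 and 0 over all genes tested.

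**Figure D2:**
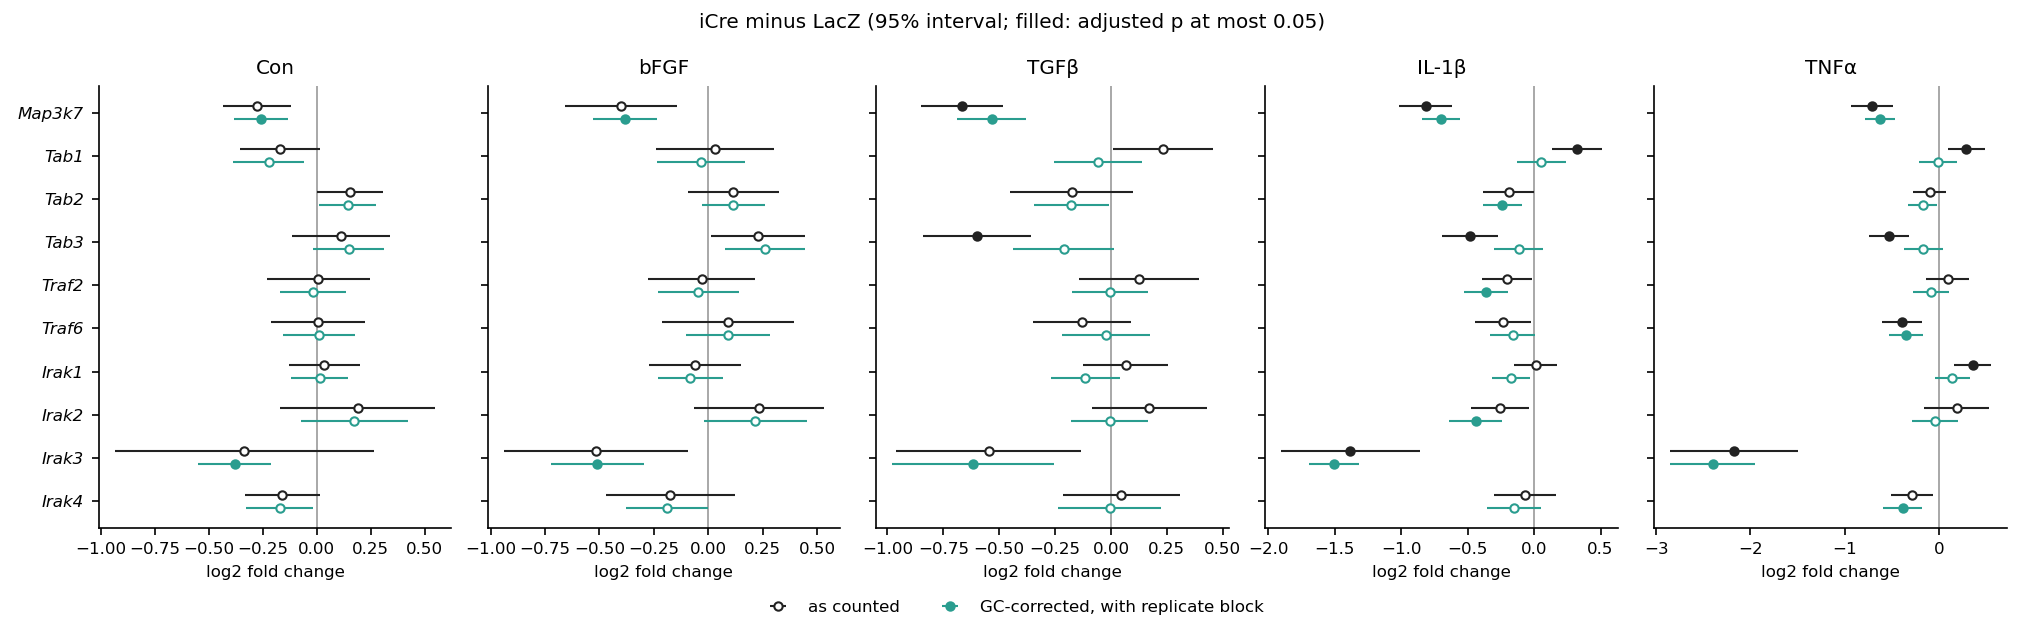
The log2 fold change of iCre against LacZ is plotted for each gene and treatment, with 95% intervals, from the counts as deposited (black) and after GC correction with the replicate block (green). Filled points passed an adjusted p of 0.05, and the horizontal scale differs between panels. *Map3k7* and *Irak3* stay filled with IL-1β and TNFα, while the calls of *Tab1* and *Tab3* are lost after correction.

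*Map3k7* encodes the kinase itself (ENSMUSG00000028284, chr4:31964097-32023467, GRCm38). Without ligand it was at 155, 144, 154 and 159 CPM in the 4 LacZ libraries and at 128, 123, 126 and 133 CPM in the 4 iCre libraries. The ranges did not overlap, yet the difference failed the test (log2 fold change -0.28, SE 0.071, adjusted p = 0.137, edgeR quasi-likelihood test) and passed with the replicate block (0.00393). With bFGF the LacZ values were 203, 166, 213 and 212 CPM and the iCre values 159, 129, 154 and 160.2 CPM, again without overlap, and this difference also passed with the block (log2 fold change -0.40, adjusted p = 0.351, with the block 0.000409).

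The gap between the viruses was wider under the other 3 ligands. With TGFβ, *Map3k7* was at 229, 222, 222 and 233 CPM under LacZ and at 154, 126, 150.4 and 153 CPM under iCre (log2 fold change -0.67, SE 0.083, adjusted p = 0.00088). With IL-1β it was at 237, 199, 211 and 233 CPM under LacZ and at 129, 124, 122 and 129.9 CPM under iCre (log2 fold change -0.82, SE 0.089, adjusted p = 0.000274). With TNFα it was at 251, 209, 243 and 251 CPM under LacZ and at 150.1, 126, 145 and 155 CPM under iCre (log2 fold change -0.71, SE 0.10, adjusted p = 0.000829). In each of the 5 treatments the 4 iCre libraries lay below the 4 LacZ libraries, and the iCre mean was 83.2% of the LacZ mean without ligand, 75.7% with bFGF, 64.3% under TGFβ, 57.4% under IL-1β and 60.4% under TNFα. After GC correction with the block the log2 fold changes were -0.53, -0.70 and -0.62 for these 3 ligands, and all 3 passed (adjusted p = 0.000215, 1.77e-06 and 0.000452). Leaving out any 1 replicate number kept these 3 calls.

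In LacZ fibroblasts, each of the 4 ligands raised *Map3k7* over Con. The log2 fold change was 0.39 with bFGF (SE 0.10, adjusted p = 0.0324), 0.58 with TGFβ (SE 0.078, adjusted p = 0.000231), 0.53 with IL-1β (SE 0.090, adjusted p = 0.00248) and 0.64 with TNFα (SE 0.083, adjusted p = 0.000626). The bFGF call was lost with a replicate number left out (0.13 without replicate 1, 0.248 without replicate 3 and 0.172 without replicate 4). In iCre fibroblasts the 4 values were 0.25, 0.21, 0.0043 and 0.21, and none passed (adjusted p = 0.214, 0.0848, 0.993 and 0.106). bFGF and TNFα passed with the block (0.0294 and 0.0344). TGFβ and TNFα passed with the block and GC correction (0.0198 and 0.0131). All comparisons with Con within a virus share its 4 Con libraries.

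The difference between the responses was tested as an interaction over 16 libraries. A negative value means a smaller response in iCre than in LacZ fibroblasts. For *Map3k7* it was, in log2 units, -0.54 with IL-1β (SE 0.10, adjusted p = 0.00247), -0.44 with TNFα (SE 0.12, adjusted p = 0.0159) and -0.40 with TGFβ (SE 0.11, adjusted p = 0.0465), and -0.13 with bFGF, which did not pass (95% interval -0.40 to 0.14, adjusted p = 1). After GC correction with the block, IL-1β and TNFα passed (adjusted p = 0.000496 and 0.00215) and TGFβ did not (log2 difference -0.28, adjusted p = 0.101). With 1 replicate number left out of every group, these calls were lost in some sets, with an adjusted p of 0.0538 without replicate 3 for IL-1β, 0.128 without replicate 3 and 0.0937 without replicate 4 for TNFα and 0.14 without replicate 1, 0.0764 without replicate 2, 0.301 without replicate 3 and 0.22 without replicate 4 for TGFβ.

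Over the 10 genes and at the same threshold, 2 interactions passed with TGFβ (4.51% of all genes), 4 with IL-1β (7.71%), 5 with TNFα (16.1%) and 0 with bFGF (0%, edgeR, with 0 of the 10 at an unadjusted p of at most 0.05 and 0 called by DESeq2). With the block 2, 5 and 7 passed for TGFβ, IL-1β and TNFα (8.04%, 16.9% and 25.1% of all genes). With GC correction as well, 0 passed with TGFβ (3.16% of all genes, edgeR, with 3 of the 10 at an unadjusted p of at most 0.05 and 3 called by DESeq2 on the counts as deposited), 5 with IL-1β (12.6%) and 5 with TNFα (21.5%), each of them negative.

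The ligands themselves changed several of the upstream genes, with *Irak2*, *Irak3* and *Traf2* moving most. In LacZ fibroblasts, IL-1β changed 7 of the 10 genes (6 higher, 1 lower, 20.7% of all genes called), TNFα 5, all higher (21.3%), TGFβ 5 (3 higher, 2 lower, 36.9%) and bFGF 3 (2 higher, 1 lower, 11.6%). In iCre fibroblasts, TNFα changed 5 (3 higher, 2 lower, 27% of all genes), TGFβ 4 (2 higher, 2 lower, 37.4%) and IL-1β 3 (2 higher, 1 lower, 16.3%). bFGF changed 0 in iCre fibroblasts by edgeR (2.42% of all genes), with 3 at an unadjusted p of at most 0.05, 2 called by DESeq2 and 3 with the replicate block (16.7% of all genes). With the block the counts were 8 for IL-1β and 7 for TNFα in LacZ (33.5% and 35.5% of all genes), and 5 for IL-1β and 7 for TNFα in iCre fibroblasts (33.8% and 36.1%). The median log2 fold change over the 10 genes with IL-1β in LacZ fibroblasts was 0.33, beside -0.10 over all genes tested.

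**Figure D3:**
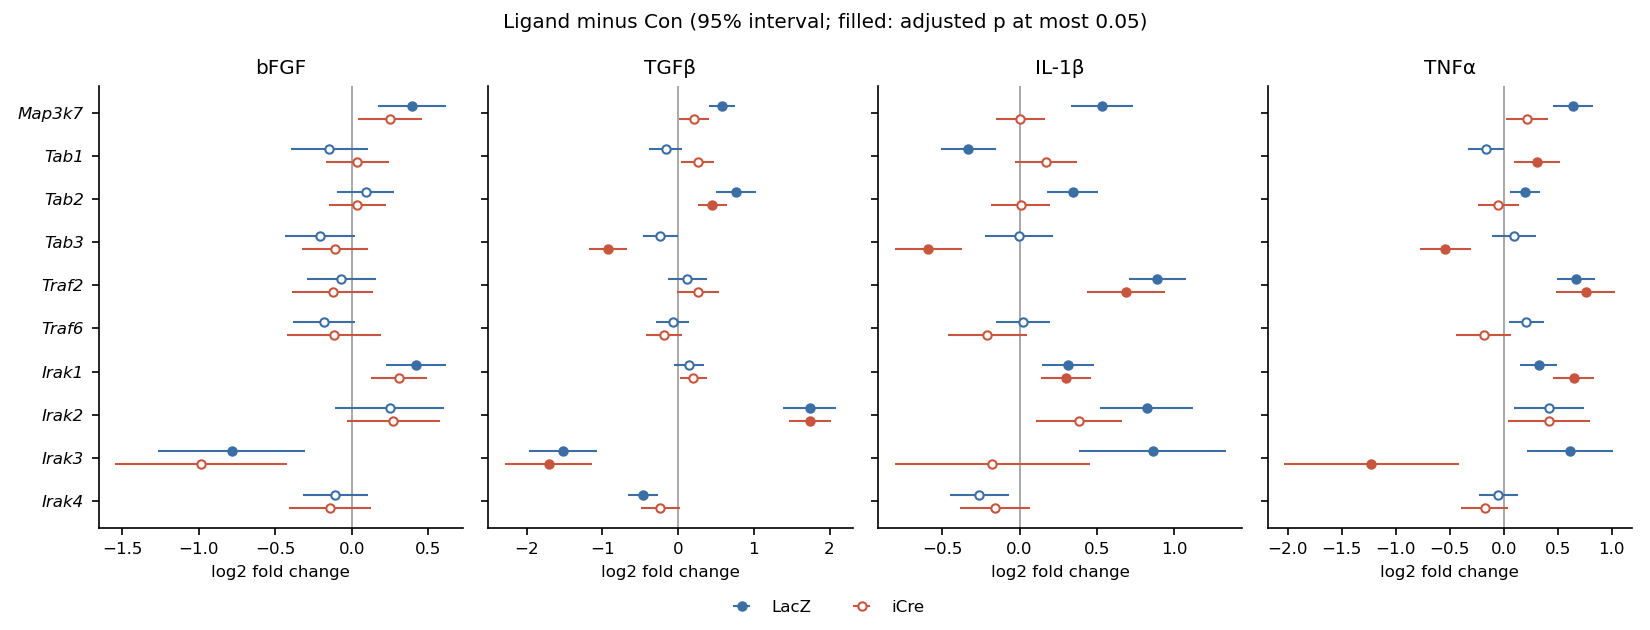
The log2 fold change of each ligand against Con is plotted with its 95% interval, in LacZ (blue) and iCre (red) fibroblasts. Filled points passed an adjusted p of 0.05, and the horizontal scale differs between panels. The values of *Irak2* with TGFβ coincide at 1.74 in both, and those of *Irak3* with TNFα lie on opposite sides of 0.

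Of the TAB subunits, *Tab2*, which encodes a ubiquitin-binding subunit, responded to TGFβ. It was at 129, 128, 127 and 127 CPM in LacZ fibroblasts without ligand and at 193, 274, 192 and 199 CPM with TGFβ (log2 fold change 0.76, SE 0.12, adjusted p = 0.000592, edgeR). Replicate 2 stood far above the other 3 TGFβ libraries, and without replicate 2 the log2 fold change was 0.61 (adjusted p = 0.000119). In iCre fibroblasts it went from 134, 153, 140.5 and 145 to 174, 207, 188 and 205 CPM (log2 fold change 0.45, SE 0.085, adjusted p = 0.00159), and the change was 0.39 after GC correction with the block (adjusted p = 0.00105). With IL-1β it rose in LacZ fibroblasts to 161, 168, 149 and 164 CPM (log2 fold change 0.34, SE 0.073, adjusted p = 0.00849), while in iCre fibroblasts the change was 0.0090 (adjusted p = 0.975). This pair of responses differed (interaction -0.35, SE 0.10, adjusted p = 0.0405, and 0.00382 with the block and GC correction). With 1 replicate number left out the adjusted p was 0.199 without replicate 1, 0.0915 without replicate 2, 0.2 without replicate 3 and 0.21 without replicate 4. With TNFα *Tab2* rose slightly in LacZ fibroblasts (log2 fold change 0.20, adjusted p = 0.0486), a call that any 1 omitted replicate number removed (0.0601 without replicate 1, 0.106 without replicate 2, 0.192 without replicate 3 and 0.272 without replicate 4). Its interaction passed with the block (-0.26, adjusted p = 0.0745, with the block 0.0273). In iCre against LacZ fibroblasts with IL-1β, the log2 fold change of *Tab2* was -0.19 (adjusted p = 0.172), and it passed with the block and GC correction (-0.24, adjusted p = 0.0185). The IL-1β call in LacZ was lost without replicate 4 (adjusted p = 0.0836).

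*Tab3*, the paralog of *Tab2*, had its lowest group means in iCre fibroblasts with TGFβ, IL-1β or TNFα, the groups that also had the highest GC slopes. Group and slope are confounded here. *Tab3* has the lowest GC content of the 10 genes (41.5%). With IL-1β it was at 21.02, 22.1, 20.5 and 18.5 CPM under LacZ and at 14.9, 16.1, 14.2 and 14.2 CPM under iCre (log2 fold change -0.48, SE 0.10, adjusted p = 0.00704, edgeR). With TNFα it was at 22.7, 21.4, 22.2 and 22.1 CPM under LacZ and at 16.8, 13.99, 14.5 and 15.4 CPM under iCre (log2 fold change -0.52, SE 0.10, adjusted p = 0.00291). The groups did not overlap in either treatment, nor with TGFβ, where the log2 fold change was -0.60 (adjusted p = 0.00768). After GC correction with the block the 3 values were -0.21, -0.12 and -0.16 for TGFβ, IL-1β and TNFα, and none passed (adjusted p = 0.308, 0.433 and 0.247). Without ligand and with bFGF, where no library had a slope above 0.0033, the log2 fold change was 0.11 and 0.23, and neither passed (adjusted p = 0.647 and 0.466). In LacZ fibroblasts TGFβ gave *Tab3* a log2 fold change of -0.23 over Con (adjusted p = 0.109), which passed in 5 of 13 alternative fits. Against iCre Con, *Tab3* fell with TGFβ from 25.5, 21.3, 21.7 and 21.9 to 12.8, 10.2, 12.1 and 11.9 CPM (log2 fold change -0.92, SE 0.11, adjusted p = 9.56e-05), which held after GC correction with the block (-0.65, adjusted p = 0.000162). Its falls with IL-1β (-0.59, adjusted p = 0.00317) and TNFα (-0.54, adjusted p = 0.00412) shrank to -0.26 and -0.22 (adjusted p = 0.0155 and 0.0646), of which the first passed.

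For *Tab3* the interaction was -0.72 under TGFβ, -0.60 under IL-1β and -0.65 under TNFα (adjusted p = 0.00684, 0.00937 and 0.00286). The values were -0.36, -0.27 and -0.32 after GC correction with the block, of which TNFα alone passed (adjusted p = 0.0334). With replicate numbers left out, the calls of iCre against LacZ were lost with TGFβ (0.0768 without replicate 3 and 0.0756 without replicate 4) and with IL-1β (0.0547 without replicate 1 and 0.0754 without replicate 3). Those of the interactions were lost with TGFβ (0.0848 without replicate 3 and 0.0881 without replicate 4), IL-1β (0.0588 without replicate 1 and 0.116 without replicate 3) and TNFα (0.0546 without replicate 3).

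*Tab1*, whose product activates the kinase directly, has the highest GC content of the 10 genes (58.2%). In LacZ fibroblasts it fell with IL-1β from 18.7, 20.03, 19.7 and 20.5 to 14.6, 15.6, 15.8 and 16.2 CPM (log2 fold change -0.33, SE 0.080, adjusted p = 0.0153, edgeR), a fall that the GC correction with the block left at -0.32 (adjusted p = 0.00508) and that was lost with 1 replicate number left out (0.104 without replicate 3 and 0.1 without replicate 4). The groups did not overlap. In iCre fibroblasts with IL-1β it was at 19.3, 19.4, 19.4 and 20.4 CPM, above each LacZ library (log2 fold change 0.32, SE 0.086, adjusted p = 0.0282). With TNFα it was at 18.4, 16.9, 17.9 and 17.1 CPM under LacZ and at 21.9, 20.1, 22.1 and 20.9 CPM under iCre (log2 fold change 0.29, SE 0.088, adjusted p = 0.0315). Both differences between the viruses were lost after GC correction with the block, to 0.055 with IL-1β and -0.0077 with TNFα (adjusted p = 0.76 and 0.987). Neither was called once any 1 replicate number was left out (0.123 without replicate 1, 0.0507 without replicate 2, 0.157 without replicate 3 and 0.106 without replicate 4 with IL-1β and 0.0716 without replicate 1, 0.0894 without replicate 2, 0.19 without replicate 3 and 0.136 without replicate 4 with TNFα). The interactions of *Tab1* with IL-1β (0.49, adjusted p = 0.00831) and TNFα (0.46, adjusted p = 0.00726) did not pass after correction (0.0855 and 0.202). With 1 number left out the adjusted p was 0.0602 without replicate 1, 0.0549 without replicate 2 and 0.118 without replicate 4 for IL-1β and 0.069 without replicate 2, 0.0572 without replicate 3 and 0.131 without replicate 4 for TNFα. A rise with TNFα over Con in iCre fibroblasts (0.30, adjusted p = 0.0398, 0.132 without replicate 1, 0.0884 without replicate 2, 0.115 without replicate 3 and 0.21 without replicate 4) was likewise lost after correction (0.422).

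**Figure D4:**
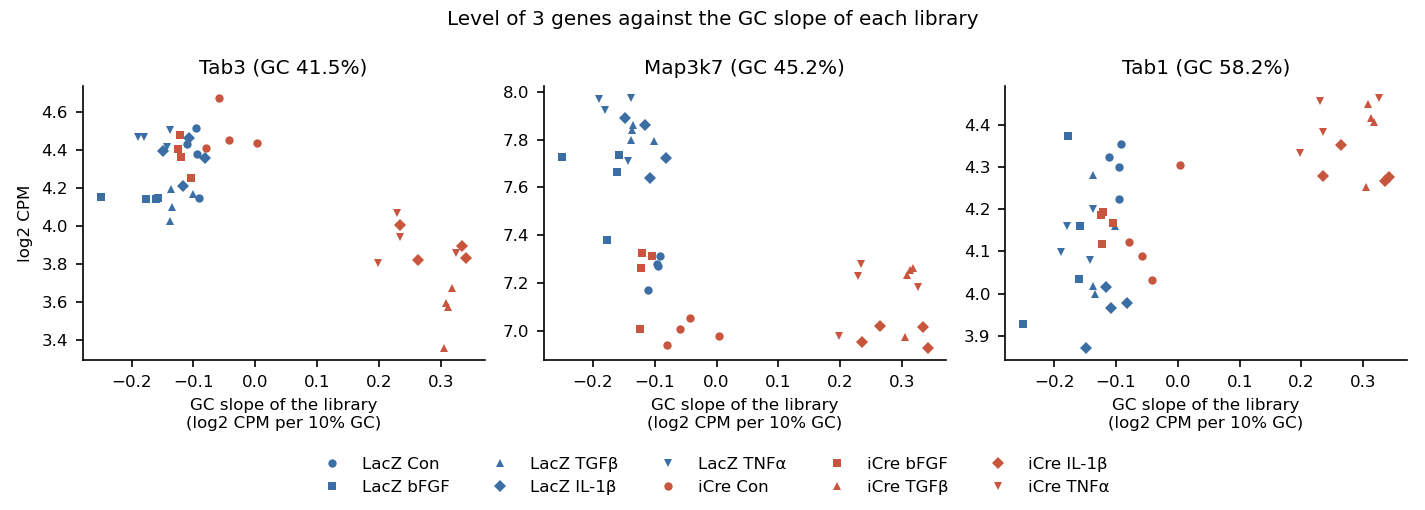
Each point is a library, placed by its GC slope (horizontal, log2 CPM per 10% GC content, relative to the mean library) and by the log2 CPM of *Tab3*, *Map3k7* or *Tab1* (vertical, a scale of its own in each panel). The 12 iCre libraries given 1 of TGFβ, IL-1β and TNFα lie at 0.198 or above, where *Tab3* is low and *Tab1* high. In iCre libraries without ligand or with bFGF, whose slopes do not exceed 0.0033, *Map3k7* lies below the LacZ libraries of the same treatment. Its iCre libraries with bFGF overlap those of LacZ Con.

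Both ubiquitin ligases act where a receptor hands its signal to TAK1. *Traf2*, the ligase of the TNF receptor route, rose with both inflammatory ligands and did so in both kinds of fibroblasts. In LacZ fibroblasts it was at 26.2, 22.8, 26.7 and 26.5 CPM without ligand, under IL-1β at 46.5, 48.9, 46.4 and 46.3 CPM and under TNFα at 41.4, 41.7, 41.1 and 38.1 CPM. The iCre libraries were at 25.2, 22.1, 26.6 and 29.6 CPM without ligand, under IL-1β at 45.8, 37.3, 39.9 and 41.7 CPM and under TNFα at 49.4, 42.8, 42.3 and 36.4 CPM. No library with either ligand overlapped Con. The log2 fold changes with IL-1β were 0.89 in LacZ (SE 0.084, adjusted p = 9.5e-05, edgeR) and 0.69 in iCre fibroblasts (SE 0.11, adjusted p = 0.00301). Those with TNFα were 0.67 (SE 0.080, adjusted p = 0.000392) and 0.76 (SE 0.12, adjusted p = 0.00158). These 4 calls held without any 1 replicate number and after GC correction with the block. The responses of the 2 kinds of fibroblasts were not shown to differ with TNFα (interaction 0.079, 95% interval -0.23 to 0.39). With IL-1β the interaction was -0.22 (95% interval -0.50 to 0.070, adjusted p = 0.411), and -0.35 after GC correction with the block (adjusted p = 0.045). With IL-1β every iCre library lay below every LacZ library, a difference that passed after GC correction (log2 fold change -0.21, adjusted p = 0.135, corrected with the block -0.36, adjusted p = 0.00244).

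*Traf6*, the ligase of the IL-1 receptor route, moved little with any ligand. Over the 10 groups its means ran from 24.2 to 32.3 CPM. With TNFα it was at 33.00, 34.3, 30.95 and 31.1 CPM under LacZ and at 23.5, 27.5, 21.9 and 24.1 CPM under iCre. The groups did not overlap (log2 fold change -0.39, SE 0.095, adjusted p = 0.0119, edgeR), and the difference was -0.35 after GC correction with the block (adjusted p = 0.0104). The adjusted p was 0.0895 without replicate 3 and 0.0653 without replicate 4. The interaction with TNFα was -0.41 (SE 0.13, adjusted p = 0.0415, with the block and GC correction 0.0133), and it was lost in 3 of the 4 sets with 1 replicate number left out (0.127 without replicate 1, 0.127 without replicate 3 and 0.143 without replicate 4). In LacZ fibroblasts TNFα raised *Traf6* with the block (log2 fold change 0.21, adjusted p = 0.0676, with the block 0.0226). With IL-1β, the block also brought under the threshold a lower level in iCre than in LacZ fibroblasts (-0.24, adjusted p = 0.13, with the block 0.0387) and than in iCre Con (-0.21, adjusted p = 0.275, with the block 0.0368), and neither passed with the GC correction as well (0.18 and 0.112).

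Of the 4 IRAK genes, *Irak1*, which encodes a kinase that binds TRAF6 once IRAK4 has phosphorylated it, held the largest part of the summed length-scaled level in every group. It was at 116, 105, 109 and 114 CPM in LacZ Con, under IL-1β at 133, 131, 139 and 143 CPM and under TNFα at 147, 125, 142 and 139.7 CPM. Both ligands raised it (log2 fold change 0.31, SE 0.076, adjusted p = 0.0159 with IL-1β, and log2 fold change 0.32, SE 0.076, adjusted p = 0.0143 with TNFα, edgeR), as did bFGF (log2 fold change 0.42, SE 0.089, adjusted p = 0.0153). These 3 calls were lost with 1 replicate number left out, with an adjusted p of 0.113 without replicate 3 and 0.105 without replicate 4 for IL-1β, 0.114 without replicate 3 and 0.0899 without replicate 4 for TNFα and 0.0676 without replicate 1, 0.179 without replicate 3 and 0.0935 without replicate 4 for bFGF. In iCre fibroblasts it went from 109, 113, 115 and 122 CPM without ligand to 157, 175, 186 and 182 CPM with TNFα (log2 fold change 0.65, SE 0.085, adjusted p = 0.000592), and the rise was 0.45 after GC correction with the block (adjusted p = 0.000552). With TNFα its iCre libraries all lay above its LacZ libraries (log2 fold change 0.36, SE 0.087, adjusted p = 0.0123), but the difference fell to 0.15 after that correction (adjusted p = 0.239). With 1 replicate number left out its adjusted p was 0.0669 without replicate 2, 0.107 without replicate 3 and 0.0817 without replicate 4. A rise with IL-1β in iCre fibroblasts (0.30, adjusted p = 0.0192, 0.132 without replicate 1, 0.109 without replicate 3 and 0.0604 without replicate 4) was lost after correction (0.168). With the block, bFGF raised it in iCre fibroblasts (0.31, adjusted p = 0.0904, with the block 0.00576), and the interaction with TNFα passed (0.32, adjusted p = 0.0569, with the block 0.0241), the latter not with the GC correction (0.424). Exons of 2 microRNA genes lie inside those of *Irak1* on the same strand (*Mir718*, 70 bases, and *Mir5132*, 71 bases).

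*Irak2*, whose product sustains late IL-1 and Toll-like receptor signaling, had its highest level with TGFβ. It was at 8.44, 12.1, 8.02 and 9.88 CPM in LacZ Con and 32.7, 37.7, 29.8 and 26.1 CPM with TGFβ. The iCre libraries were at 9.03, 11.7, 13.2 and 10.2 CPM in Con and 35.5, 39.9, 35.8 and 34.1 CPM with TGFβ. Every TGFβ library was above every other library of its virus, and the mean was 3.28 times Con in LacZ and 3.29 times Con in iCre fibroblasts. The log2 fold change was 1.74 in LacZ (SE 0.16, adjusted p = 1.91e-05, edgeR) and 1.74 in iCre fibroblasts (SE 0.13, adjusted p = 3.6e-06), with an interaction of -0.028 (95% interval -0.45 to 0.40). Both calls held without any 1 replicate number and after GC correction with the block (1.72 and 1.56).

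IL-1β raised *Irak2* to a lesser level, 18.1, 16.6, 15.1 and 17.5 CPM in LacZ fibroblasts (log2 fold change 0.82, SE 0.14, adjusted p = 0.00222, edgeR). In iCre fibroblasts with IL-1β it was at 14.2, 14.1, 14.6 and 14.1 CPM, below every LacZ library, a difference that passed after GC correction (log2 fold change -0.25, adjusted p = 0.112, corrected with the block -0.44, adjusted p = 0.00259). The interaction with IL-1β was -0.45 (adjusted p = 0.177) and -0.62 after correction with the block (adjusted p = 0.0197). TNFα raised *Irak2* in LacZ fibroblasts with the block (0.42, adjusted p = 0.0669, with the block 0.000975). In iCre fibroblasts IL-1β (0.39, adjusted p = 0.0627, with the block 0.000523) and TNFα (0.42, adjusted p = 0.0989, with the block 0.018) raised it with the block and not with the GC correction as well (0.105 and 0.192). Its exons share 196 bases with a model transcript on the opposite strand (*Gm43963*).

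*Irak3*, the brake of this group, had the widest range of group means, 2.75 on the log2 scale. In LacZ fibroblasts it was at 44.2, 23.4, 34.99 and 35.5 CPM without ligand, under IL-1β at 79.9, 44.8, 60.8 and 63.4 CPM and under TNFα at 60.8, 44.8, 53.2 and 52.01 CPM. The iCre libraries were at 36.3, 14.8, 32.4 and 26.9 CPM without ligand, under IL-1β at 31.3, 15.9, 28.7 and 20.5 CPM and under TNFα at 19.5, 7.76, 11.95 and 6.81 CPM. Replicate 2 was the lowest library in each of these groups except iCre with TNFα, where replicate 4 was. With both ligands the iCre libraries lay below the LacZ libraries. The log2 fold change of iCre against LacZ was -1.38 with IL-1β (SE 0.23, adjusted p = 0.00306, edgeR) and -2.17 with TNFα (SE 0.30, adjusted p = 0.000809), and -1.50 and -2.40 after GC correction with the block (adjusted p = 1.04e-08 and 0.000133). Both calls held without any 1 replicate number. The iCre means were also lower without ligand (-0.34), with bFGF (-0.52) and with TGFβ (-0.55), differences that passed with the block (adjusted p = 0.00517, 0.00244 and 0.0208) and not without it (0.597, 0.429 and 0.111).

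The inflammatory ligands raised *Irak3* in LacZ fibroblasts, by 0.86 in log2 units with IL-1β (SE 0.21, adjusted p = 0.0173, edgeR) and by 0.61 with TNFα (SE 0.18, adjusted p = 0.0366). In iCre fibroblasts TNFα lowered it (log2 fold change -1.23, SE 0.36, adjusted p = 0.0305, and -1.38 after GC correction with the block, adjusted p = 0.000309). IL-1β gave a value of -0.18 (adjusted p = 0.743), which passed with the block and GC correction (-0.26, adjusted p = 0.0172). The response to TNFα differed between the viruses (interaction -1.85, SE 0.44, adjusted p = 0.00848, and 5.47e-05 with GC correction and the block). That to IL-1β differed with the block (interaction -1.05, adjusted p = 0.128, with the block 2.24e-05). With 1 replicate number left out the adjusted p was 0.0912 without replicate 3 and 0.092 without replicate 4 for IL-1β in LacZ, 0.153 without replicate 3 and 0.14 without replicate 4 for TNFα in LacZ, 0.148 without replicate 3 and 0.121 without replicate 4 for TNFα in iCre, and 0.102 without replicate 3 and 0.0836 without replicate 4 for the interaction with TNFα.

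TGFβ and bFGF moved *Irak3* down. With TGFβ it was at 10.9, 9.57, 12.3 and 14.8 CPM under LacZ and at 10.3, 9.14, 7.38 and 6.55 CPM under iCre, below every Con library of the same virus. The log2 fold changes were -1.52 (SE 0.20, adjusted p = 0.000204, edgeR) and -1.71 (SE 0.26, adjusted p = 0.000428), with an interaction of -0.22 (95% interval -0.96 to 0.53), and both held without any 1 replicate number. After GC correction with the block the iCre value was -1.75 (adjusted p = 1.52e-05). With bFGF the values were -0.79 in LacZ (adjusted p = 0.0415, 0.0746 without replicate 1, 0.209 without replicate 3 and 0.204 without replicate 4) and -0.99 in iCre fibroblasts (adjusted p = 0.0769, with the block 0.000146).

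The 8 macrophage and leukocyte markers summed to 42.6 to 164 CPM in LacZ and 35.5 to 119.8 CPM in iCre libraries with TNFα, ranges that overlapped. With IL-1β the sums were 48.9 to 167 CPM and 34.7 to 113 CPM. None of the 8 markers was lower in iCre fibroblasts with either ligand by the test without the block, and 1 was higher with TNFα. With IL-1β 4 were lower after GC correction with the block, and with TNFα 1 was lower and 1 higher, where 22.5% and 27.6% of all genes were called. *Cd68*, a lysosomal protein of macrophages, was at 3.18 ± 1.00 CPM under LacZ and at 6.66 ± 0.969 CPM under iCre with TNFα, without overlap, and at 4.13 ± 1.39 and 6.26 ± 1.36 CPM with IL-1β. Every other marker of the list had a lower mean under iCre than under LacZ with both ligands. *Lyz2*, which had the highest level of them, was at 69.6 ± 42.1 and 57.6 ± 39.5 CPM with TNFα. With IL-1β it was at 75.4 ± 42.4 and 50.8 ± 34.0 CPM. Without ligand 5 of the 8 were lower in iCre fibroblasts with the block, as *Irak3* was, where 14.5% of all genes were called. With IL-1β and with TNFα, the highest sum was that of replicate 4 in LacZ fibroblasts and of replicate 1 in iCre fibroblasts. The highest *Irak3* level was that of replicate 1 in each of these groups. In LacZ fibroblasts with either ligand, replicate 2 had both the lowest sum and the lowest *Irak3* level. In iCre fibroblasts the lowest sum and the lowest *Irak3* level fell on different replicate numbers. The part of these markers in the level of *Irak3* was not tested. Exons of *Irak3* share 192 bases with those of *Tmbim4* and 28 with those of *Gm47009*, both on the opposite strand, and the strand setting of the counting is not given in the sources used here. *Tmbim4* was at 60.96 ± 2.32 CPM under LacZ and at 38.7 ± 3.28 CPM under iCre with TNFα (log2 fold change -0.63, adjusted p = 0.000576, edgeR).

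*Irak4*, the first kinase of the route, had the narrowest range of group means among the IRAK genes (0.45 on the log2 scale). It fell with TGFβ in LacZ fibroblasts from 24.2, 24.6, 26.9 and 24.3 to 18.1, 16.9, 18.9 and 18.1 CPM (log2 fold change -0.46, SE 0.089, adjusted p = 0.00224, edgeR), without overlap, and the call held without any 1 replicate number. In iCre fibroblasts the change was -0.23 (adjusted p = 0.157, with the block and GC correction 0.0372), and the interaction of 0.20 did not pass (95% interval -0.094 to 0.49). With TNFα it was at 25.98, 22.5, 23.1 and 24.8 CPM under LacZ and at 21.3, 19.6, 19.4 and 17.5 CPM under iCre, which passed with the block (log2 fold change -0.29, adjusted p = 0.06, with the block 0.0481). IL-1β lowered it in LacZ fibroblasts with the block (-0.26, adjusted p = 0.0558, with the block 0.0203). In iCre fibroblasts the change with IL-1β was -0.16 (adjusted p = 0.339), which passed in 1 of 13 alternative fits. The interaction with IL-1β was 0.088 and did not pass (95% interval -0.17 to 0.34). Its exons share 395 bases with *Twf1* on the opposite strand, which was at 137 ± 9.93 CPM in LacZ Con and 218 ± 17.7 CPM with TGFβ.

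As shares of the summed IRAK level per kilobase, *Irak3* made up 23.2 ± 4.21% (SD, n = 4) in LacZ fibroblasts without ligand, 31.2 ± 4.85% with IL-1β, 27.8 ± 1.46% with TNFα and 8.17 ± 1.61% with TGFβ. In iCre fibroblasts it made up 19.1 ± 5.68% without ligand, 15.02 ± 3.77% with IL-1β and 6.65 ± 3.52% with TNFα, and its libraries lay below those of LacZ with both inflammatory ligands. *Irak2* made up 5.51 ± 1.46% in LacZ Con and 18.1 ± 3.29% with TGFβ. Per kilobase, mean *Irak2* exceeded mean *Irak3* with TGFβ under both viruses and, by a small margin, in iCre fibroblasts with TNFα (3.26 ± 0.657 against 3.13 ± 1.57 CPM per kb), and *Irak3* had the higher mean in the other 7 groups, both Con groups included. Of the TAB genes, *Tab2* made up 69.8 ± 0.359% in LacZ Con, 77.2 ± 0.960% with IL-1β and 81.5 ± 2.38% with TGFβ. These shares were not tested.

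**Figure D5:**
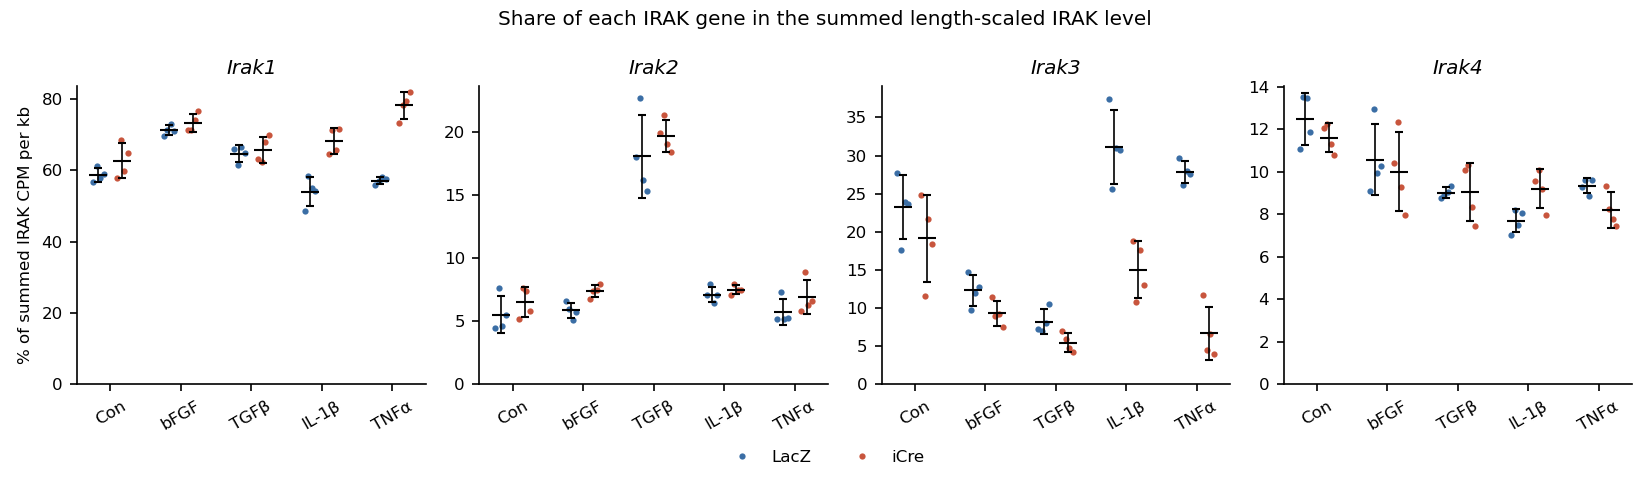
Each panel gives the share (%, linear axis from 0, a scale of its own) of 1 IRAK gene in the summed CPM per kilobase of the 4 in each library, for LacZ (blue) and iCre (red), with the mean ± SD of 4. The *Irak3* share of LacZ libraries with TNFα (26.2 to 29.7%) lies above that of iCre libraries (3.94 to 11.6%), and *Irak2* is highest with TGFβ.

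IL-1β and TNFα reach TAK1 through different adaptors, and their LacZ libraries could be compared with no shared control. One of the 10 genes, *Irak2*, passed the test (9.62% of all genes), being higher with IL-1β than with TNFα (means 16.8 ± 1.31 and 12.8 ± 1.47 CPM, log2 fold change 0.39, SE 0.11, adjusted p = 0.0473, edgeR). Its adjusted p was 0.195 without replicate 1, 0.163 without replicate 3 and 0.272 without replicate 4. With the block 5 genes passed (24.2% of all genes), of which *Irak2*, *Irak3* and *Traf2* were higher with IL-1β (log2 fold change 0.39, 0.22 and 0.21) and *Traf6* and *Irak4* higher with TNFα (-0.20 and -0.22). The adaptor of the TNF receptor, *Traf2*, was at 47.1 ± 1.26 CPM under IL-1β against 40.6 ± 1.69 CPM under TNFα, and that of the IL-1 receptor, *Traf6*, at 28.2 ± 1.37 and 32.3 ± 1.61 CPM.

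The rest of the route was followed in 56 genes in 6 lists. In LacZ fibroblasts IL-1β raised 5 of 11 other TRAFs, cIAPs and Pellino ligases and TNFα raised 6 and lowered 1, while IL-1β raised 2 of 12 enzymes and editors of ubiquitin chains and TNFα 6. As background, IL-1β raised 11.1% and lowered 9.55% of all genes tested, and TNFα raised 10.9% and lowered 10.4%. IL-1β raised the cIAP genes *Birc3* (97.03 ± 13.8 against 20.5 ± 1.83 CPM, log2 fold change 2.25, SE 0.12, adjusted p = 3.23e-06, edgeR) and *Birc2* (97.6 ± 11.7 against 43.98 ± 3.10 CPM, log2 fold change 1.16, SE 0.10, adjusted p = 5.95e-05). Among the editors, *Tnfaip3*, which encodes the deubiquitinase A20, went to 123 ± 12.2 against 10.9 ± 3.03 CPM (log2 fold change 3.50, SE 0.21, adjusted p = 6.11e-06) and *Tnip1*, which encodes an A20-binding protein, to 157 ± 11.2 against 52.9 ± 4.56 CPM (log2 fold change 1.58, SE 0.10, adjusted p = 6.11e-06). Of 11 receptors and their adaptors, 3 rose with IL-1β, among them the receptor *Il1r1* (333 ± 58.7 against 203 ± 24.8 CPM, log2 fold change 0.72, SE 0.14, adjusted p = 0.00608) and the adaptor *Myd88* (51.1 ± 2.94 against 42.6 ± 2.23 CPM, log2 fold change 0.27, SE 0.074, adjusted p = 0.0256). With TNFα 2 rose and 2 fell.

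Kinases and phosphatases of the route moved in both directions. Of 11 kinases downstream of TAK1, 3 rose and 1 fell with IL-1β, and 2 rose with TNFα. Over all genes, 11.1% rose and 9.55% fell with IL-1β, and 10.9% and 10.4% with TNFα. IL-1β raised *Mapkapk2*, a kinase under p38 (165 ± 10.3 against 100.3 ± 8.36 CPM, log2 fold change 0.74, SE 0.086, adjusted p = 0.000347, edgeR), and *Map2k3*, which activates p38 (83.3 ± 5.04 against 57.2 ± 4.56 CPM, log2 fold change 0.56, SE 0.080, adjusted p = 0.0011). Of 8 other MAP3 kinases, 1 rose and 2 fell, namely *Map3k8* (27.1 ± 4.54 against 8.29 ± 2.18 CPM, log2 fold change 1.72, SE 0.19, adjusted p = 0.000236) as the 1 that rose and *Map3k1* (11.2 ± 1.72 against 19.1 ± 3.47 CPM, log2 fold change -0.77, SE 0.16, adjusted p = 0.00788) as 1 of those that fell, while 1 rose with TNFα. Of 3 phosphatases that act on TAK1, *Ppp6c* rose with IL-1β (55.6 ± 2.76 against 44.8 ± 3.31 CPM, log2 fold change 0.32, SE 0.086, adjusted p = 0.0242).

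After Cre, the enzymes and editors of ubiquitin chains that passed the test on counts as deposited were all lower. With TNFα 6 of 12 were lower and 0 higher, and with IL-1β 4 lower and 0 higher, beside 12.6% lower and 14.8% higher of all genes with TNFα, and 8.98% and 7.14% with IL-1β. After GC correction with the block 6 were lower and 1 higher with TNFα, and 5 lower and 0 higher with IL-1β. That fit called 27.6% of all genes with TNFα and 22.5% with IL-1β, in either direction. *Tnip1* was at 106 ± 30.7 against 462 ± 52.1 CPM with TNFα in iCre against LacZ libraries (log2 fold change -2.10, SE 0.20, adjusted p = 0.000156, edgeR) and 77.3 ± 12.1 against 157 ± 11.2 CPM with IL-1β (log2 fold change -1.03, SE 0.12, adjusted p = 0.000395), and its corrected values were -2.44 and -1.30 (adjusted p = 2.53e-05 and 4.72e-09). *Ube2d3*, a ubiquitin-conjugating enzyme with 37.5% GC, was lower as well (log2 fold change -0.99, SE 0.10, adjusted p = 0.000165 with IL-1β and log2 fold change -0.97, SE 0.084, adjusted p = 0.000101 with TNFα), but its values shrank to -0.30 and -0.25 after GC correction with the block (adjusted p = 0.00388 and 0.0784). Of the TRAFs, cIAPs and Pellinos, 4 were higher and 4 lower with TNFα, and 3 and 3 with IL-1β. *Tifa*, whose product activates TRAF6, was at 7.95 ± 3.41 against 47.00 ± 6.52 CPM with TNFα (log2 fold change -2.54, SE 0.28, adjusted p = 0.000275) and *Birc3* at 83.95 ± 18.2 against 183 ± 19.1 CPM (log2 fold change -1.11, SE 0.16, adjusted p = 0.000832). With IL-1β *Birc2* was at 47.4 ± 6.87 against 97.6 ± 11.7 CPM (log2 fold change -1.06, SE 0.13, adjusted p = 0.00046) and *Traf5*, in the other direction, at 23.2 ± 3.33 against 10.7 ± 1.13 CPM (log2 fold change 1.10, SE 0.12, adjusted p = 0.000327). The corrected log2 fold changes were -2.43 for *Tifa*, -1.12 for *Birc3*, -0.81 for *Birc2* and 1.52 for *Traf5*, and all 4 passed (adjusted p = 6.39e-05, 0.000165, 1.5e-06 and 2.1e-08).

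Among other MAP3 kinases, *Map3k14*, which encodes NIK, the kinase of the noncanonical NF-κB route, was higher after Cre with IL-1β (68.5 ± 17.6 against 20.98 ± 2.31 CPM, log2 fold change 1.69, SE 0.18, adjusted p = 0.00023, edgeR) and with TNFα (77.6 ± 25.4 against 25.3 ± 3.87 CPM, log2 fold change 1.64, SE 0.22, adjusted p = 0.000716), and its corrected values were 1.39 and 1.29 (adjusted p = 1.92e-07 and 0.000212). *Map3k2* was lower with both ligands (log2 fold change -0.59, SE 0.11, adjusted p = 0.00444 and log2 fold change -0.77, SE 0.079, adjusted p = 0.000199), which did not hold after GC correction with the block (adjusted p = 0.778 and 0.0567). In all, 3 of the 8 were higher after Cre and 2 lower with IL-1β, against 2 and 3 with TNFα. Of the 11 kinases downstream, 1 was higher and 4 lower with IL-1β, and 2 and 4 with TNFα. *Mapk8* (JNK1) was lower with both (log2 fold change -0.80, SE 0.11, adjusted p = 0.000855 and log2 fold change -0.63, SE 0.10, adjusted p = 0.00156). Its values shrank after GC correction with the block, to -0.31 with IL-1β (adjusted p = 0.0147) and -0.14 with TNFα (adjusted p = 0.368). *Mapk9* (JNK2) was lower with IL-1β (log2 fold change -0.40, SE 0.078, adjusted p = 0.00672) and *Map2k3* higher with TNFα (log2 fold change 0.98, SE 0.13, adjusted p = 0.000615), with corrected values of -0.32 and 0.73 (adjusted p = 0.00196 and 0.000924).

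Of the 11 receptors and adaptors, 1 was higher and 1 lower after Cre with each of IL-1β and TNFα, where 16.1% and 27.3% of all genes were called. *Il1r1* was lower with IL-1β (230.1 ± 16.02 against 333 ± 58.7 CPM, log2 fold change -0.55, SE 0.13, adjusted p = 0.0185, edgeR) and *Myd88* lower with TNFα (40.5 ± 5.81 against 75.6 ± 5.96 CPM, log2 fold change -0.88, SE 0.12, adjusted p = 0.00058), with corrected values of -0.34 and -1.11 (adjusted p = 0.0054 and 0.000245). *Tradd* was higher with IL-1β (log2 fold change 0.33, SE 0.10, adjusted p = 0.0467) and *Sigirr*, at under 1 CPM, higher with TNFα (log2 fold change 1.01, SE 0.30, adjusted p = 0.0325), and neither passed after GC correction with the block (adjusted p = 0.634 and 0.167). Of the phosphatases of TAK1, *Ppm1l* was higher with IL-1β (log2 fold change 0.98, SE 0.19, adjusted p = 0.00541) and TNFα (log2 fold change 1.17, SE 0.20, adjusted p = 0.00215), and *Ppp6c* lower (log2 fold change -0.89, SE 0.079, adjusted p = 0.000109 and log2 fold change -0.71, SE 0.10, adjusted p = 0.000773). The corrected values were 0.96 and 1.12 for *Ppm1l* (adjusted p = 1.57e-05 and 0.000898), and -0.28 and -0.077 for *Ppp6c* (adjusted p = 0.0081 and 0.568).

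Over the 10 group means of log2(CPM + 1), the 3 genes most like *Map3k7* among 13089 with a mean of at least 1 CPM were *Nt5dc1* (Pearson r = 0.982), *Rala* (r = 0.967) and *Chtop* (r = 0.958). For *Irak3* they were *Fmo1* (r = 0.981), *Zfp36l1* (r = 0.976) and *Serping1* (r = 0.971). For *Irak2* they were *Nars2* (r = 0.995), *Snap47* (r = 0.991) and *Lins1* (r = 0.987). Among the 10 genes themselves, *Irak2* and *Tab2* had the most alike pattern (r = 0.945), both with their highest means under TGFβ. These values describe 10 group means that share libraries of the same viruses and replicate numbers, and carry no test.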

How the data were processed

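Poly-A RNA of cultured mouse cardiac fibroblasts was sequenced by the authors in 40 libraries. The labels name an NEBNext kit and the methods a stranded TruSeq kit, so the strand setting of the counting is not given in the sources used here. The deposited table holds raw counts per gene, made by the authors with STAR on mm10 and HTSeq 0.10.0, with FastQC 0.10.1 per the submitters' processing notes. Reads from transcripts with and without the floxed exon enter the same count.

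Counts were tested with edgeR 4.0.16 in R 4.3.3 (quasi-likelihood test, TMM scaling, genes with at least 10 counts in all, 2-sided, Benjamini-Hochberg adjusted p of at most 0.05 over 25210 genes), each fit holding the libraries compared. The ratio of ligand responses between viruses was tested as an interaction. CPM per kb uses all exon bases of a gene in GENCODE M21, which annotated 52133 of the 55414 genes in the table. Total counts were at least 25360947 per library.

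Replicate numbers paired the samples. Deviations from group means correlated at a mean r of 0.54 between libraries of the same number and -0.15 between others, over 13090 genes, and every same-number pair in a comparison was above 0.1. This pairing was seen in the data and is not stated in the labels. The GC correction removed each library's lowess trend on GC content, as offsets, over 24970 genes. Other alternatives were DESeq2 1.42.0, its size factors, other gene filters, each replicate number left out, 1 fit of all libraries and another gene length. The steps were tested on simulated data with known answers.

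The 10 genes and the gene lists were chosen with earlier results of these data known. All 10 genes are named. Of the other lists, the 2 genes with the smallest p among those called were named for iCre against LacZ with IL-1β, the same with TNFα, and IL-1β against Con in LacZ fibroblasts. Promoters came from RefSeq on GRCm38.p6.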

Additional observations from a re-analysis of the deposited data

Results flagged for a closer look

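In 11 of 100 sets of 4 libraries (10 genes in 10 groups), 1 library lay far from the other 3, where chance gives about 1 in 20. Replicate 2 was that library in 5 of them. It was low for *Map3k7* in iCre fibroblasts with TGFβ (126 CPM) and for *Traf2* in LacZ Con (22.8 CPM), and high for *Tab2* in LacZ fibroblasts with TGFβ (274 CPM), *Traf2* in LacZ fibroblasts with IL-1β (48.9 CPM) and *Traf6* in iCre fibroblasts with bFGF (32.98 CPM). Replicate 4 was high for *Tab1* in iCre fibroblasts with IL-1β (20.4 CPM) and low for *Traf2* in LacZ fibroblasts with TNFα (38.1 CPM). Replicate 1 was high for *Tab3* in iCre Con (25.5 CPM) and for *Irak2* in LacZ fibroblasts with bFGF (13.6 CPM). Replicate 3 was high for *Irak2* in iCre fibroblasts with IL-1β (14.6 CPM) and for *Irak4* in LacZ Con (26.9 CPM).

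Responses to a ligand differed between iCre and LacZ fibroblasts, by the interaction test in edgeR, for 6 genes and in 11 tests. With TGFβ the log2 difference was -0.40 for *Map3k7* and -0.72 for *Tab3*. With IL-1β it was -0.54 for *Map3k7*, 0.49 for *Tab1*, -0.35 for *Tab2* and -0.60 for *Tab3*. With TNFα it was -1.85 for *Irak3*, 0.46 for *Tab1*, -0.41 for *Traf6*, -0.44 for *Map3k7* and -0.65 for *Tab3*. After GC correction with the replicate block, those of *Tab1* with both ligands, of *Tab3* with TGFβ and IL-1β and of *Map3k7* with TGFβ no longer passed, and the other 6 did.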

How the results depend on the processing

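Counts below are tests of the 10 genes that passed. For iCre against LacZ, 12 of 50 passed, 6 to 10 with 1 replicate number left out, and 19 with the replicate block. For the ligands in LacZ fibroblasts, 20 of 40 passed, and 10 to 20 with 1 number left out. For the ligands in iCre fibroblasts, 12 of 40 passed, 9 to 16 with 1 number left out, 19 with the replicate block and 19 with all 40 libraries in 1 fit. For the interactions, 11 of 40 passed, 1 to 8 with 1 number left out (1 without replicate 3 and 3 without replicate 4), and 4 with the GC correction. For IL-1β against TNFα, 1 of 10 passed by edgeR (4 at an unadjusted p of at most 0.05), 2 by DESeq2, 2 with filterByExpr, 2 with protein-coding genes only, 5 with the block, 6 with the GC correction and the block, 0 to 1 with 1 number left out, and 0 with no filter, with the GC correction or with all libraries in 1 fit. Fewer libraries were tested where a number was left out, and the cause of the other shifts was not tested.

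Among called differences, 1 turned direction. *Tab1* in iCre against LacZ fibroblasts with TNFα was -0.0074 on the log2 scale with the GC correction and -0.0077 with the GC correction and the block. Over the 180 single tests, the GC correction alone removed 20 further calls and added 7, the block added 24 and removed none, and RLE scaling added 3 and removed 2. Beside the values given with each gene, the block changed no other call. Each gene had at least 197 counts in each library.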
